A study of Mus musculus with 1753 samples.

Results

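The 9 genes described here are the markers most often used to recognise pericytes: Cspg4, Mcam, Anpep, Rgs5, Kcnj8, Abcc9, Des, Vtn and Higd1b. They were chosen by name, with earlier results of these data known. Each was found as 1 row among the 46517 genes of the count table by its Ensembl identifier. Their expression was followed over 1753 single cells of mouse hindlimb skeletal muscle, with attention to the 187 cells of cluster 7, the mural cells. The other 1566 cells belong to 9 clusters of fibroblasts.

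Cells came from adult male mice aged 10 to 20 weeks under 5 strain labels. C57BL6 is an inbred wild-type strain whose cells were sorted with antibodies against PDGFRα or PDGFRβ. Acta2GFP, Cspg4dsRED and PdgfrbGFP carry a fluorescent transgene driven by the promoter of the gene in the name, and the PdgfraGFP - PdgfrbGFP pool (called the pool below) joined cells of a pair of reporter lines, with the Pdgfra reporter at the gene's own locus. All sorts excluded cells with the endothelial protein CD31. Mural cells numbered 56 in Acta2GFP, 9 in C57BL6, 74 in Cspg4dsRED, 11 in the pool and 37 in PdgfrbGFP. The labels name no mouse, so the strain served as the replicate, and p-values measure only the spread between these labels. Cspg4dsRED cells were sorted on a Cspg4 reporter, so the level of Cspg4 there is part of how the cells were chosen.

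Mural cells wrap blood vessels. Pericytes are the mural cells of capillaries and lie within the vessel's basement membrane, whereas smooth muscle cells form the contractile coat of larger vessels. No gene is known to mark pericytes alone, and combinations are used in practice, since several of these markers are shared with smooth muscle, fibroblasts or glial precursors.

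Promoter windows of 4 markers are shown because these 4 genes were found in part in the same mural cells (below). Of 38 Rgs5 cells, 18 were also positive for Vtn, 11 for Kcnj8 and 10 for Abcc9. RefSeq (GRCm38.p6) held a window from 250 bases before to 50 bases after the start of transcription for 8 of the 9 markers, and none for Higd1b. Capitals mark the letters TGGGAA, the core bound by RBPJ, the DNA-binding partner of Notch, searched on both strands and read as TTCCCA on the other. The windows lie at chr1:169655251-169655550 on the plus strand for Rgs5, chr6:142571565-142571864 on the minus strand for Kcnj8, chr6:142702225-142702524 on the minus strand for Abcc9 and chr11:78498870-78499169 on the plus strand for Vtn, each printed 5′ to 3′ along its gene.
Rgs5: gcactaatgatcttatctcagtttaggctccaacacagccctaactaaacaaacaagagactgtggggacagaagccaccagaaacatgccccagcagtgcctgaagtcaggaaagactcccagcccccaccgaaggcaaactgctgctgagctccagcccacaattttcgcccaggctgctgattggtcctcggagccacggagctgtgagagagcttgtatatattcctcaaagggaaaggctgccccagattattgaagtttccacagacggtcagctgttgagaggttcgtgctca
Kcnj8: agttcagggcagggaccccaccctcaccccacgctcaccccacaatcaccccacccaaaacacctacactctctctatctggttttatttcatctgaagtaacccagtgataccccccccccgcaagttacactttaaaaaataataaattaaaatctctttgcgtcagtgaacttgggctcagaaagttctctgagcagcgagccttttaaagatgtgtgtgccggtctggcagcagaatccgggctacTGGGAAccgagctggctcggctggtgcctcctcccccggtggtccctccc
Abcc9: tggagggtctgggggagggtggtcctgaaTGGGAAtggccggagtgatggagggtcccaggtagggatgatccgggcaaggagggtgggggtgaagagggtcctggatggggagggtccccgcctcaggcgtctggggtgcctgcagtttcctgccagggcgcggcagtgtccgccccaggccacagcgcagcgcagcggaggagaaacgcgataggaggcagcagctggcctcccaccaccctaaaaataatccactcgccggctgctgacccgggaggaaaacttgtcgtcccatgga
Vtn: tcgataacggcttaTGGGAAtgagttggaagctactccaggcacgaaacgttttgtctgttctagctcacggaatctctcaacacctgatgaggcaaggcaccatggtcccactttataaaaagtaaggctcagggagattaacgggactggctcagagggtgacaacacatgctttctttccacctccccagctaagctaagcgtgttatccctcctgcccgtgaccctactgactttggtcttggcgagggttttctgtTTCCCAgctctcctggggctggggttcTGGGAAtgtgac
The letters TGGGAA occurred 3 times in the Vtn window and 1 time each in those of Kcnj8 and Abcc9, and did not occur in the windows of Rgs5, Cspg4, Mcam, Anpep and Des. Of all 32851 windows in the table, 25.6% held them. The CArG box, which serum response factor binds in smooth muscle genes, was found in 0 of the 8 windows and in 1.63% of all. The GC box GGGCGG occurred 5 times in Mcam, 4 times in Anpep, 2 times in Cspg4, 2 times in Des and 1 time in Abcc9, against 35.7% of windows with at least 1. Kcnj8 and Abcc9 are neighbours on chromosome 6, on the same strand, with 16247 bases between the gene bodies.

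Each cell held between 46097 and 1055869 counts (medians, 269496 for fibroblasts and 156959 for mural cells; by strain, 128712 to 222744 for mural cells). Counts of each cell were scaled to 500000, and a cell was called positive for a gene at 100 or more scaled counts. The methods use a level of 100 counts for detection but do not state it for scaled counts. Longer genes reach this level more easily, so shares are compared between clusters and strains, and levels between genes only per kilobase of exon. A share is given as the mean over strains with 3 or more cells of the cluster, ± SD. All 187 cells of cluster 7 were positive for at least 1 of 8 mural markers. So were 1111 of 1566 fibroblasts, so this count did not set cluster 7 apart. To describe cluster 7, the levels of 12 contractile genes of smooth muscle were summed. The clusters were made and named from these same counts, so the sums do not test the label. The sums ran from 11420 to 22940 scaled counts over the strains of mural cells, against 250.1 to 898.4 in fibroblasts. Acta2 was positive in 94.1% ± 8.40 of mural cells and Myh11 in 90.8% ± 10.8. Pdgfra was positive in 0 of 187 mural cells, which allows a share of up to 1.60%. Contractile genes were thus found in nearly every cell of cluster 7. The paper reports that few pericytes were captured from skeletal muscle. Shares below are therefore shares of mural cells as a whole and not of pericytes. In 36 mural cells both Pdgfra and Pdgfrb were at 0, although the methods describe removing such cells. A protocol note names heart in 1 place and the tissue label skeletal muscle, while Myh6, the cardiac myosin, was positive in 0 cells and Acta1, the skeletal actin, in 240 fibroblasts and 10 mural cells.

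In C57BL6 the mural cells split by plate. On the larger plate (366 cells of all clusters) 5 of 5 mural cells were positive for Rgs5, Kcnj8 and Vtn and 4 for Abcc9, while on the smaller plate (7 cells) 0 of 4 were positive for any of these genes or for Higd1b. All 4 mural cells of the smaller plate, and 0 of the 5 of the larger, were positive for the macrophage genes Lyz2 and C1qa. Over the whole list of 6 immune markers, the summed level in mural cells ranged from 0.576 to 497 scaled counts over strains (5.32 to 14.4 in fibroblasts), 5 of the genes were positive somewhere, and 5 of 187 cells were positive for any. The shares of Rgs5, Kcnj8, Abcc9 and Vtn and the counts of markers per cell are therefore given with and without the smaller plate, and the part of the immune RNA in these differences was not tested.

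Across all genes, 15.4% of 13880 tested were called between mural cells and fibroblasts (edgeR's quasi-likelihood test on summed counts of 5 strains, Benjamini-Hochberg adjusted p under 0.05), 6.15% higher and 9.27% lower in mural cells. All 9 markers passed the filter on low counts, and 5 were called, each higher in mural cells: Cspg4, Mcam, Rgs5, Des and Higd1b. Kcnj8, Abcc9, Vtn and Anpep were not called. Because the clusters had been made from these same counts, the calls describe the clusters and are not independent evidence. The median log2 fold change was 4.41 for the 9 markers and −0.46 over all genes tested. The markers were chosen with earlier results of these data known, so these medians describe the list and do not test it.

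**Figure D1:**
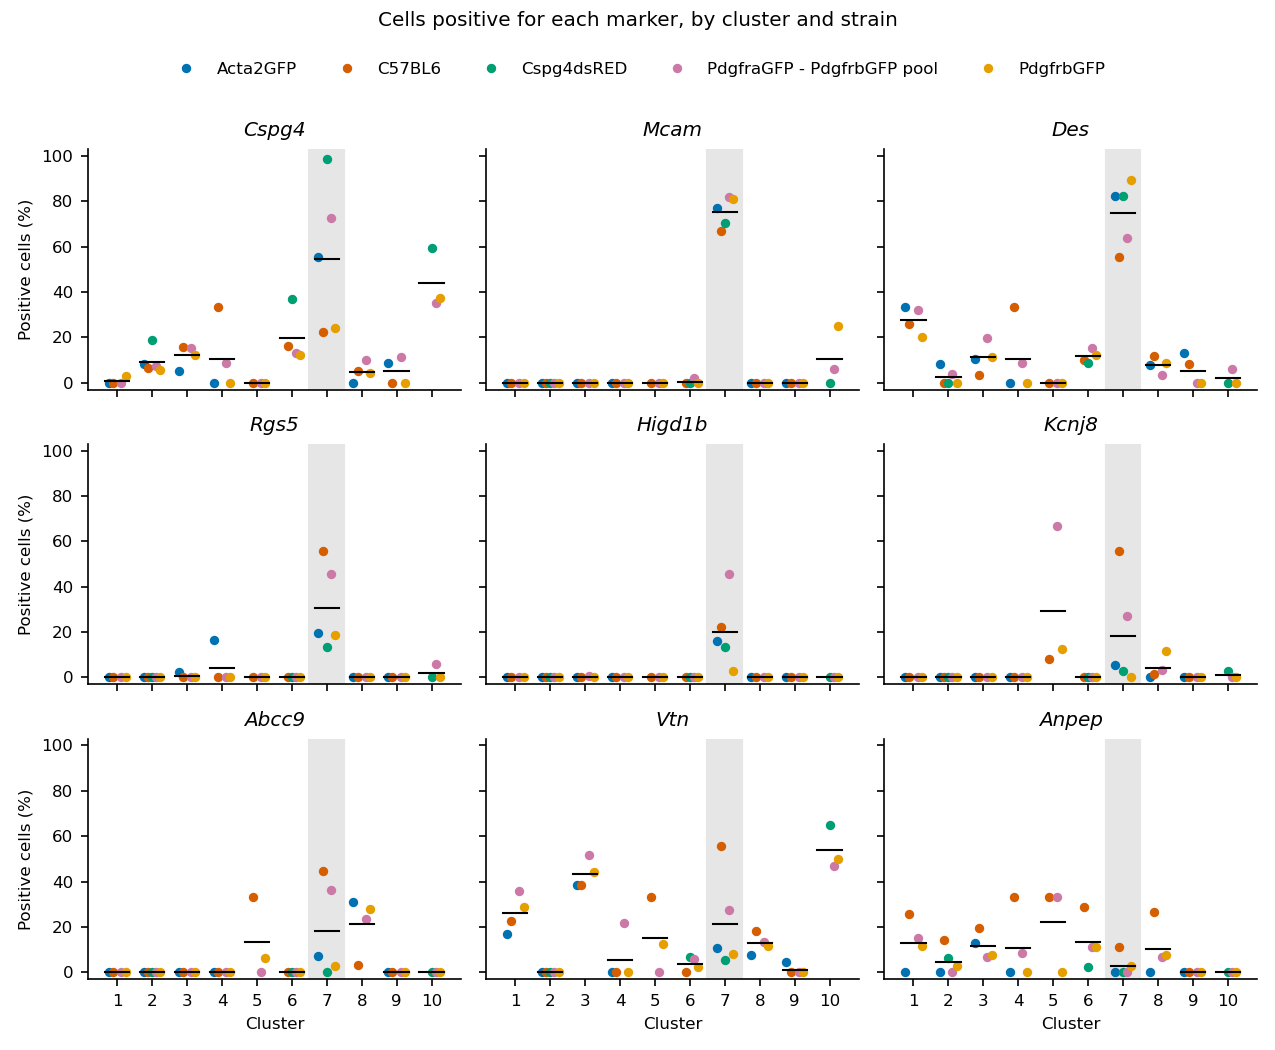
Share of cells positive (100 or more counts per 500000) for each marker in percent, by cluster; points are strains with 3 or more cells, bars are means over strains and the grey band is cluster 7, the mural cells. Mcam, Rgs5 and Higd1b are highest in cluster 7 and near 0 elsewhere, apart from cluster 10 for Mcam and the Acta2GFP point of cluster 4 for Rgs5 (16.7%, 1 cell), while Vtn, Anpep, Kcnj8 and Abcc9 reach higher mean shares in a fibroblast cluster.

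Surface proteins came first. Mcam (ENSMUSG00000032135, chromosome 9, 44134469 to 44142727 in GRCm38) encodes the adhesion molecule CD146. It was positive in 76.8% of mural cells in Acta2GFP, 66.7% in C57BL6, 70.3% in Cspg4dsRED, 81.8% in the pool and 81.1% in PdgfrbGFP, and in at most 0.499% of fibroblasts of any strain. The strains differed little and did not overlap with fibroblasts. Of 144 positive cells in the series, 140 lay in cluster 7 and 3 in cluster 10. The log2 fold change between mural cells and fibroblasts was 8.60 (SE 0.955, edgeR adjusted p = 0.000697), in 5 of 5 strains. In cluster 10, Mcam had 181 and 417 counts in the cluster 10 cells of the pool and PdgfrbGFP, from 1 of 17 and 2 of 8 positive cells, and 17 counts in those of Cspg4dsRED, where 0 of 37 cells were positive.

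Cspg4 (ENSMUSG00000032911, chromosome 9, 56865033 to 56899870) encodes the proteoglycan NG2. The share of positive mural cells was 98.7% in Cspg4dsRED, where it was sorted for, 72.7% in the pool, 55.4% in Acta2GFP, 24.3% in PdgfrbGFP and 22.2% in C57BL6. Strains thus ranged widely, and PdgfrbGFP and C57BL6 lay lowest. In C57BL6, 2 of 4 mural cells were positive on the smaller plate and 0 of 5 on the larger. Among fibroblasts the share was 40.2% in Cspg4dsRED and 5.94% to 11.97% in the other strains. The log2 fold change was 2.33 (SE 0.369, edgeR adjusted p = 0.00386), in 5 of 5 strains, and it was smallest in Cspg4dsRED, where the summed levels stood at 9.78 and 8.83 log2 CPM (counts scaled by library size). Without the smaller C57BL6 plate it was 1.82 and no longer called (edgeR adjusted p = 0.0947), and without Cspg4dsRED it was 2.67 and called. On the larger C57BL6 plate the mural cells held 0, 0, 0, 2 and 99 scaled counts of Cspg4. The mean in C57BL6 fibroblasts was 27.3, so the difference above 0 in C57BL6 rested mainly on the smaller plate. Cluster 10, a cluster of fibroblasts, reached 59.5% positive cells in Cspg4dsRED, 35.3% in the pool and 37.5% in PdgfrbGFP. Cluster 6 followed with 36.96% in Cspg4dsRED and 12.35% to 16.3% in its other 3 strains. Of 297 positive cells in the series, 123 were mural.

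Anpep (ENSMUSG00000039062, chromosome 7, 79821803 to 79861059) encodes aminopeptidase N, also called CD13. Only 2 of 187 mural cells were positive, 1 of 9 in C57BL6 and 1 of 37 in PdgfrbGFP, a pooled share of 1.07% (exact 95% interval 0.130% to 3.81%). Fibroblasts were positive in 5.94% of cells in Acta2GFP, 20.3% in C57BL6, 1.87% in Cspg4dsRED, 7.98% in the pool and 7.42% in PdgfrbGFP, so every strain had a larger share among fibroblasts. By cluster it was positive in 22.2% ± 19.3 of cluster 5, 13.3% ± 11.04 of cluster 6 and 13.1% ± 10.6 of cluster 1, and in 0 cells of clusters 9 and 10. The log2 fold change between mural cells and fibroblasts was −2.53 (SE 0.843, edgeR adjusted p = 0.0833), below 0 in 4 of 5 strains. C57BL6, with 0.53, was the exception, and without C57BL6 the value was −3.21 and called (edgeR adjusted p = 0.0292).

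The cytoskeletal marker Des (ENSMUSG00000026208, chromosome 1, 75360329 to 75368579) encodes desmin, the intermediate filament of muscle cells. Positive mural cells made up 82.1% in Acta2GFP, 55.6% in C57BL6, 82.4% in Cspg4dsRED, 63.6% in the pool and 89.2% in PdgfrbGFP, against 4.67% to 15.96% of fibroblasts. All strains of mural cells lay above all strains of fibroblasts. Its log2 fold change was 4.56 (SE 0.250, edgeR adjusted p = 7.15e-05) and lay between 4.20 and 5.11 in the single strains, the narrowest range of the 9 markers. Cluster 1 was the highest of the fibroblast clusters with 27.8% ± 6.16, clusters 3 and 6 had 11.1% ± 6.61 and 11.6% ± 2.78, and cluster 5 had 0 positive cells. Acta1, the actin of muscle fibres, was positive in 11 of 41 Des-positive and 21 of 120 Des-negative cells of cluster 1, and in 8 of 152 and 2 of 35 cells of cluster 7. The part of fibre RNA in the Des counts was not tested. Of the exonic bases of Des, 5.86% overlap an antisense gene, and whether counting used strand is not given in the sources used here.

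Rgs5 (ENSMUSG00000026678, chromosome 1, 169655501 to 169695813) encodes a regulator that shortens signalling through heterotrimeric G proteins. It was positive in 11 of 56 mural cells of Acta2GFP, 5 of 9 of C57BL6, 10 of 74 of Cspg4dsRED, 5 of 11 of the pool and 7 of 37 of PdgfrbGFP. The mean level was 2636 and 1971 scaled counts in C57BL6 and the pool and 132.6 to 172.4 in the other 3 strains, so the pair with few mural cells stood apart. Over strains the share was 30.6% ± 18.7, and 39.5% ± 36.02 without the smaller C57BL6 plate. Fibroblasts held 3 positive cells of 1566, and the log2 fold change was 9.05 (SE 1.16, edgeR adjusted p = 0.00138), in 5 of 5 strains. The gene was thus specific to cluster 7 but positive in a minority of its cells, and 50.8% had any count of it. The paper describes Rgs5 as a gene of pericytes that some smooth muscle populations lack, so this share does not measure how well it marks pericytes. Among fibroblasts, 26.5% of cells had a count of Rgs5, so a single count did not set mural cells apart.

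Higd1b (ENSMUSG00000020928, chromosome 11, 102835849 to 102838040) belongs to a family of small hypoxia-induced proteins of mitochondria. Of the mural cells, 9 of 56 were positive in Acta2GFP, 2 of 9 in C57BL6, 10 of 74 in Cspg4dsRED, 5 of 11 in the pool and 1 of 37 in PdgfrbGFP. The pool reached 343.3 scaled counts per cell on average, and the other strains 4.58 to 47.3. Outside cluster 7, 1 of 1566 cells was positive. The log2 fold change was 7.65 (SE 0.789, edgeR adjusted p = 0.000503), in 5 of 5 strains. Summed counts per strain were 119 to 1468 in mural cells and 4 to 201 in fibroblasts.

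Kcnj8 (ENSMUSG00000030247, chromosome 6, 142564837 to 142571614) and Abcc9 (ENSMUSG00000030249, chromosome 6, 142587862 to 142702315) encode the pore and the regulatory subunit of a potassium channel that opens when ATP falls. Kcnj8 was positive in 3 of 56 mural cells of Acta2GFP, 5 of 9 of C57BL6, 2 of 74 of Cspg4dsRED, 3 of 11 of the pool and 0 of 37 of PdgfrbGFP. Abcc9 was positive in 4, 4, 0, 4 and 1 cells in the same order of strains. C57BL6 and the pool were again high, and the other 3 strains low or at 0. Without the smaller C57BL6 plate the mean shares were 27.1% ± 42.2 and 25.2% ± 33.9, against 18.2% ± 23.5 and 18.1% ± 20.7 with it. The mean level of Kcnj8 ran from 0.313 scaled counts in PdgfrbGFP to 736.4 in the pool, and that of Abcc9 from 0.113 in Cspg4dsRED to 928.3 in the pool.

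Neither subunit was called between mural cells and fibroblasts. The log2 fold change was 4.41 for Kcnj8 (SE 2.50, edgeR adjusted p = 0.304) and 3.73 for Abcc9 (SE 1.51, edgeR adjusted p = 0.150). The difference for Kcnj8 was 7.45 in C57BL6, 7.61 in the pool, 5.37 in Acta2GFP, −0.004 in Cspg4dsRED and −5.00 in PdgfrbGFP. Without PdgfrbGFP, where the difference for Abcc9 was −0.999, Abcc9 was called at 5.21 (edgeR adjusted p = 0.026). Without C57BL6 or the pool, neither was called, and the values were 2.25 and 2.28 for Abcc9 and 2.56 and 2.54 for Kcnj8, which stood at 0.95 with plates as units. Outside cluster 7 both subunits were confined at this level to clusters 5 and 8, with 1 Kcnj8 cell in cluster 10 besides. Abcc9 was positive in 54 of 253 cells of cluster 8 (41 of 148 in PdgfrbGFP, 7 of 30 in the pool, 4 of 13 in Acta2GFP and 2 of 60 in C57BL6), and Kcnj8 in 20. In cluster 5, of 31 cells, each was positive in 5. As means over strains, Kcnj8 reached 29.2% ± 32.5 in cluster 5 and Abcc9 21.3% ± 12.4 in cluster 8, above their shares in cluster 7 by less than the spread between strains. The mean for Kcnj8 included 2 of 3 cells in the pool, and with all cells of cluster 5 pooled its share was 16.1%. Without the smaller C57BL6 plate, the 25.2% of Abcc9 in cluster 7 lay above its share in cluster 8. The cells with both numbered 14 in cluster 8, which is 70.0% of the Kcnj8 cells and 25.9% of the Abcc9 cells, and 9 in cluster 7, which is 69.2% of each. Of the other channel subunits in the list, Abcc8 was called higher in mural cells (log2 fold change 10.65, SE 1.77, edgeR adjusted p = 0.00467) with 11 positive mural cells and 0 fibroblasts, and Kcnj11 was positive in 1 mural cell and not tested. Of the exonic bases of Abcc9, 1.89% overlap the antisense gene 5330439B14Rik, and without stated strand use their reads cannot be told apart.

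Vtn (ENSMUSG00000017344, chromosome 11, 78499091 to 78502324) encodes vitronectin, a secreted adhesion protein of matrix and plasma. Mural cells were positive in 6 of 56 cells of Acta2GFP, 5 of 9 of C57BL6, 4 of 74 of Cspg4dsRED, 3 of 11 of the pool and 3 of 37 of PdgfrbGFP. Fibroblasts were positive in 17.8%, 12.1%, 27.1%, 31.9% and 20.9% in the same order, so the groups overlapped. Its log2 fold change was 0.26 (SE 0.901, edgeR adjusted p = 0.90), with 4.67 in C57BL6, 1.25 in the pool and values between −1.90 and −0.16 in the other strains, and it was −0.55 without C57BL6 and −0.12 without the pool. The mean share of Vtn cells was larger in 3 fibroblast clusters than in cluster 7, with 53.97% ± 9.55 in cluster 10, 43.2% ± 6.16 in cluster 3, 25.9% ± 8.21 in cluster 1 and 21.4% ± 20.9 in cluster 7. The share in cluster 7 was 30.3% ± 39.9 without the smaller C57BL6 plate, above that of cluster 1, and 12.9% without C57BL6. Of the 364 positive cells in the series, 5.77% were mural.

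**Figure D2:**
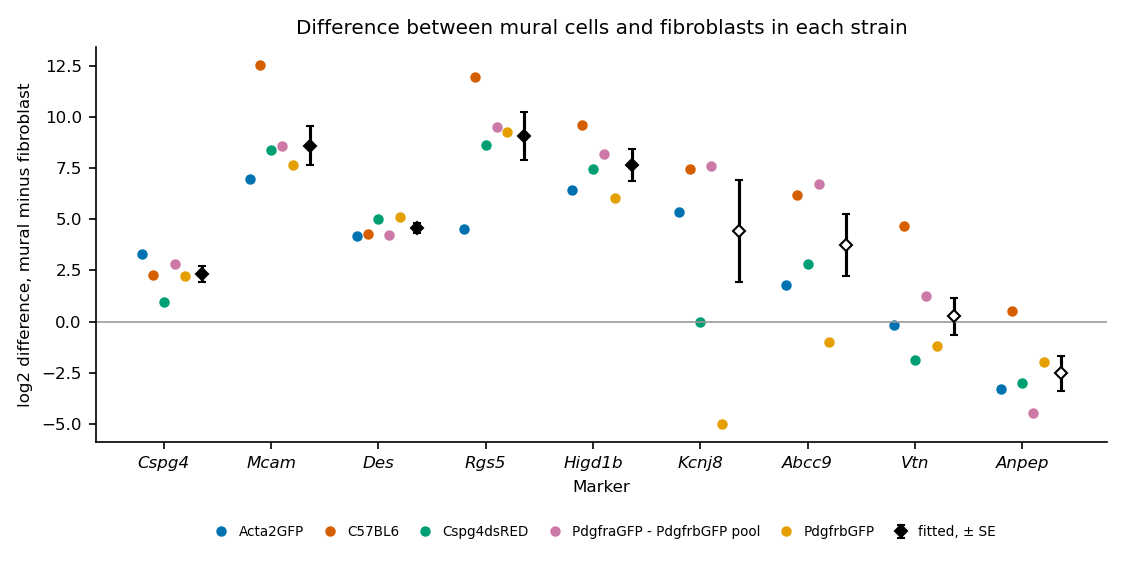
Difference in log2 CPM between summed mural cells and summed fibroblasts for each marker; coloured points are strains and diamonds the fitted log2 fold change ± SE, filled where called. With all plates included, the 5 strains lie above 0 for Cspg4, Mcam, Des, Rgs5 and Higd1b, and on both sides of 0 for Kcnj8, Abcc9, Vtn and Anpep. For Cspg4, the C57BL6 point rests mainly on the smaller plate.

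Per kilobase of exon, the mean level in mural cells was highest for Rgs5 with 223.3 and Des with 221.8 scaled counts per kilobase, then Vtn with 119.8, Higd1b with 110.1, Kcnj8 with 102.6 and Mcam with 102.0, and lowest for Abcc9 with 30.2, Cspg4 with 17.9 and Anpep with 2.66. The spread between strains was larger than the mean for Rgs5, Kcnj8, Abcc9, Vtn, Higd1b and Anpep, so the order among Rgs5, Des, Vtn, Higd1b, Kcnj8 and Mcam, and that of Abcc9 and Cspg4, lay within the spread of neighbours.

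Cluster 10 was compared with cluster 7 because the authors define it by expression of Cspg4 with other genes. It is also the fibroblast cluster with the largest share of Cspg4 cells. Of its 62 cells, 37 came from Cspg4dsRED, which was sorted on the Cspg4 reporter. Because cluster 10 was chosen for its Cspg4, the comparison is a description for that gene, and the part of the sort was not tested. In the 3 strains with 3 or more cells of both, 6.05% of 11351 genes were called by edgeR, 2.84% higher and 3.22% lower in mural cells. Of the markers, 3 were called, all higher in mural cells: Des by 7.81 on the log2 scale (SE 1.06, edgeR adjusted p = 0.00576), Rgs5 by 7.61 (SE 0.882, edgeR adjusted p = 0.00275) and Higd1b by 8.37 (SE 1.62, edgeR adjusted p = 0.0251), the last from 4, 1 and 0 counts in cluster 10. Cspg4 was not called, with 0.49 (SE 0.404, edgeR adjusted p = 0.655), nor was Vtn, with −1.85 (SE 0.744, edgeR adjusted p = 0.234). The value for Cspg4 was 0.43 without Cspg4dsRED, 0.23 without the pool and 0.85 without PdgfrbGFP, none of them called. Mcam, at 4.91, and Abcc9, at 4.37, missed the threshold (edgeR adjusted p = 0.0674 and 0.0973) and passed it without PdgfrbGFP, at 6.44 and 6.47, or without Cspg4dsRED, at 3.40 and 4.44. Without the pool they stood at 4.62 and 2.38 and missed it (edgeR adjusted p = 0.206 and 0.809). Without the pool, Higd1b was no longer called (6.68, edgeR adjusted p = 0.318) and Vtn was (−2.80, edgeR adjusted p = 0.0369). Kcnj8 stood at 1.42 and Anpep at 0.78, neither called.

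**Figure D3:**
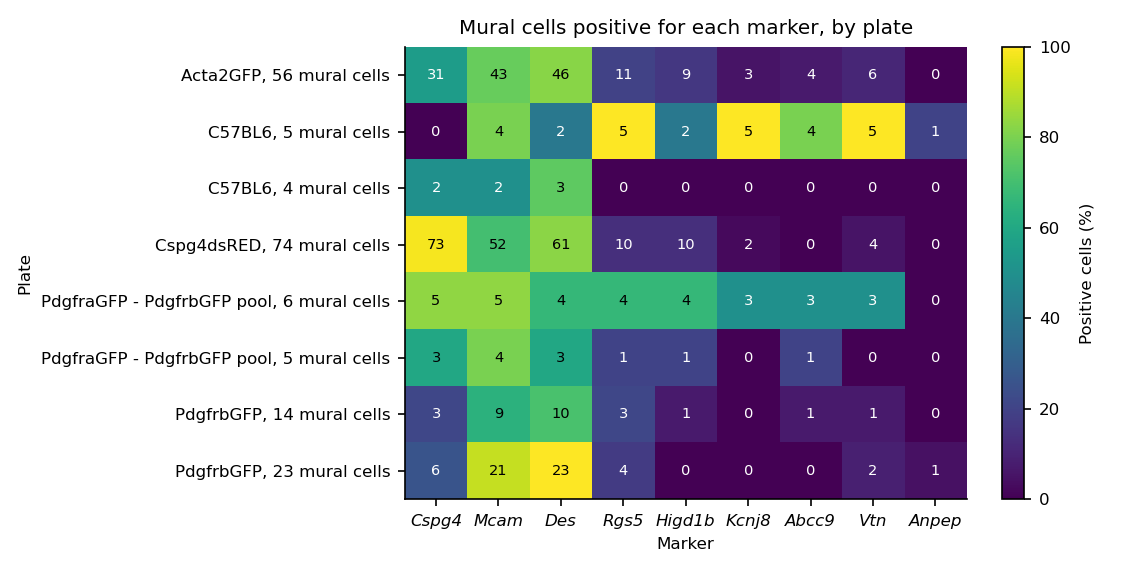
Cells of cluster 7 positive for each marker, by plate; numbers are cells and the colour is their share of the plate's mural cells in percent. The C57BL6 plate with 5 mural cells has Rgs5, Kcnj8 and Vtn in all of them, and the C57BL6 plate with 4 has none.

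Within cluster 7, a cell was positive for 3.16 ± 0.750 of the 9 markers on average over strains. The mean was 2.73 in Acta2GFP, 3.89 in C57BL6, 2.86 in Cspg4dsRED, 4.00 in the pool and 2.30 in PdgfrbGFP, against 0.593 over all fibroblasts and 1.18 in cluster 10. Without the smaller C57BL6 plate the mean over strains was 3.499 ± 1.33. No cell had more than 7. The most frequent of 41 combinations was Cspg4, Mcam and Des, with 54 cells (28.9%), followed by Mcam and Des with 32 (17.1%) and Cspg4 and Des with 21 (11.2%). In all, 107 mural cells (57.2%) and 15 fibroblasts (0.958%) had 3 or more markers. Mcam and Des were found together in 114 mural cells and 1 fibroblast, and Rgs5 and Mcam in 28 mural cells and 0 fibroblasts.

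**Figure D4:**
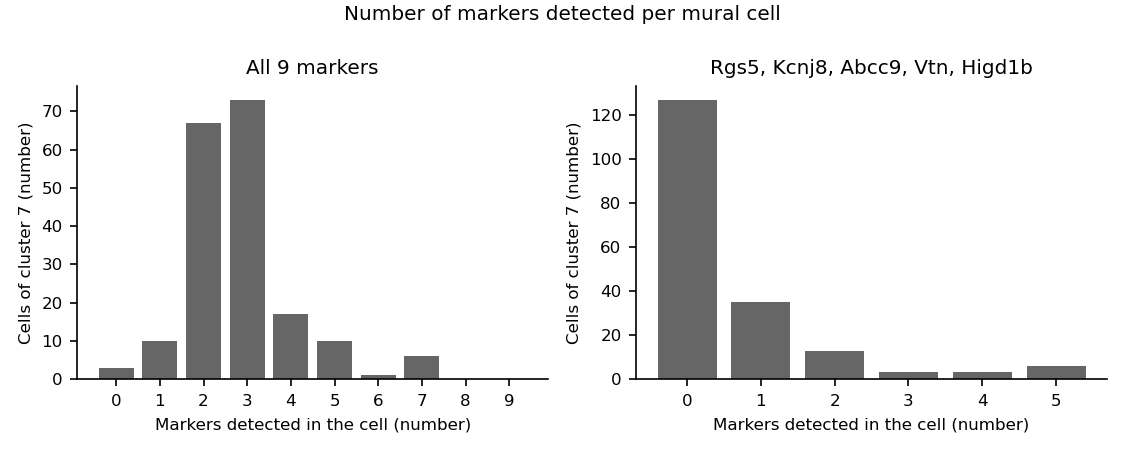
Number of cells of cluster 7 (vertical axis) by the number of markers detected per cell, for all 9 markers and for Rgs5, Kcnj8, Abcc9, Vtn and Higd1b. Most cells hold 2 or 3 markers in all, and 127 hold none of the 5.

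Rgs5, Kcnj8, Abcc9, Vtn and Higd1b were then counted together. None of these 5 genes was positive in 127 mural cells (67.9%), 1 in 35, 2 in 13, 3 in 3, 4 in 3 and all 5 in 6. The 12 cells with 3 or more came from the C57BL6 larger plate (5 of 5 mural cells), the pool (4 of 11), Acta2GFP (2 of 56) and Cspg4dsRED (1 of 74), with 0 of 37 in PdgfrbGFP. The pool also split by plate, with 3 of 6 on its plate of 231 cells, labelled gastrocnemius. On its plate of 181 cells, labelled soleus, it was 1 of 5. Kcnj8 and Vtn were each positive in 3 of those 6 mural cells and 0 of those 5. Plate and muscle cannot be told apart in the pool. All of Rgs5, Kcnj8 and Abcc9 were found in 15.1% ± 19.99 of mural cells as a mean over strains, and in 4.81% of the cells pooled. Without the smaller C57BL6 plate that mean was 22.2% ± 34.3, and the mean share with none of the 5 was 53.3% ± 31.3, against 62.2% ± 13.7 with it. Pairs overlapped unevenly: of 21 Vtn cells 18 were among the 38 with Rgs5, of 13 Kcnj8 cells 11 were, and of 27 Higd1b cells 11 were. The Spearman correlation of levels over the 187 cells was 0.59 for Rgs5 with Vtn (0.55 within Acta2GFP, 0.24 within Cspg4dsRED and 0.50 within PdgfrbGFP) and 0.42 for Kcnj8 with Abcc9 (0.32, −0.03 and −0.02), so the latter was near 0 within the last pair of strains. Cells share plates here, and the rho of the summed level of the 5 genes with depth was 0.02.

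The 12 cells with 3 or more of these 5 genes are described by counts alone, beside the 127 with none. Of the 127, 54 came from Cspg4dsRED, 34 from Acta2GFP, 29 from PdgfrbGFP, 6 from the pool and 4 from C57BL6. Among the 12, C57BL6 gave 5 and the pool 4. The groups thus differed in strain and sort, and Cspg4dsRED was sorted on Cspg4. Strain and sort cannot be told apart here from the number of these genes. Of the 12, 9 were positive for Mcam, 5 for Des and 4 for Cspg4, while of the 127 with none, 95 were positive for Mcam, 111 for Des and 86 for Cspg4. Acta2 was positive in 9 of 12 and 127 of 127, Myh11 in 8 and 124, and Cnn1, an inhibitor of smooth muscle myosin, in 2 and 106. Steap4, a metal reductase, was positive in 8 of 12 and in 1 of 127. Other genes used for pericytes differed less: Gucy1a1 was positive in 9 of 12 and 110 of 127, Notch3 in 9 and 86, Cox4i2 in 4 and 49, and Pdgfrb in 8 and 61. Among fibroblast genes, Dcn was positive in 9 of the 12 and 65 of the 127, Col1a1 in 8 and 45, Lum in 0 and 4, and Pdgfra in 0 of both. The endothelial gene Pecam1 was positive in 1 of the 12 and 0 of the 127. Over all mural cells, the summed level of the 12 contractile genes and that of the 5 markers had a Spearman correlation of −0.37, and −0.15, −0.20 and −0.20 within Acta2GFP, Cspg4dsRED and PdgfrbGFP.

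**Figure D5:**
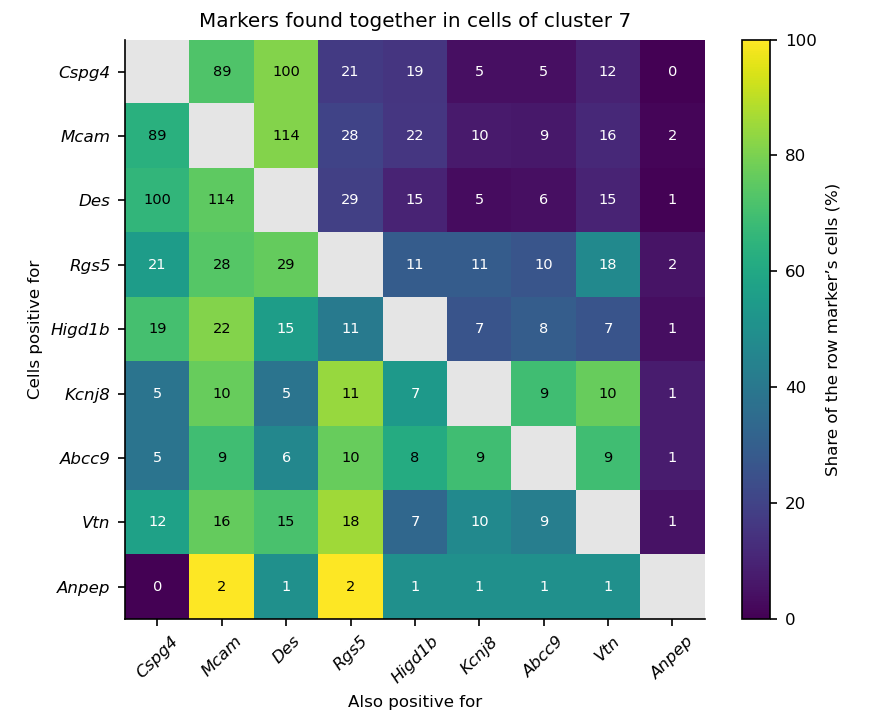
Cells of cluster 7 positive for each pair of markers; the number is the cells with both and the colour is their share of the cells positive for the row's marker in percent. Of the 21 Vtn cells 18 are also Rgs5 cells, whereas 5 of the 13 Kcnj8 cells are Des cells.

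Among 3141 other genes found in at least 10% of mural cells, those that followed the summed level of the 5 markers most closely were Ifitm3, an interferon-induced membrane protein (rho 0.46), the septin Sept4 (0.43), Tmsb4x, which binds actin monomers (0.42), the secreted peroxidase Gpx3 (0.40) and the ribosomal gene Rps19 (0.37). The lowest were Palld, an actin-bundling protein (−0.42), the intermediate filament gene Vim (−0.42), Rbpms2 (−0.38), the tropomyosin Tpm1 (−0.37) and the creatine kinase Ckb (−0.35). Within the 3 strains with most mural cells the values were smaller, from −0.01 to 0.40 for the first 5 and from −0.35 to 0.01 for the last 5.

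Over the 40 sums of clusters by strain, each marker's pattern was set beside those of 16799 genes. Mcam was most like Casq2 (Pearson r = 0.94), Pcp4l1 (0.93) and Cnn1 (0.92), Higd1b like Kcna5 (0.92), Gm13861 (0.91) and Cacna1h (0.91), and Rgs5 like Kcna5 (0.87), Crhr2 (0.87) and Tesc (0.87). Des was followed by Notch3 (0.76), Stbd1 (0.75) and Tesc (0.74), Vtn by Gprc5b (0.78), Pgf (0.75) and Tfpi (0.75), Anpep by Nectin1 (0.76), Hmcn2 (0.74) and Heg1 (0.73), and Cspg4 by Itga1 (0.74), Sept4 (0.72) and Pex19 (0.72). Likeness was weaker for Kcnj8, with Gm37800 (0.65), Adra2a (0.65) and Gm28258 (0.63), and for Abcc9, with its antisense gene 5330439B14Rik (0.73), Csmd1 (0.70) and Gm27867 (0.68). The sums share strains and clusters, and these values are descriptions.

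Other genes used for pericytes went with the markers in part. Of 18 such genes 17 were tested between mural cells and fibroblasts, 10 were higher, 1 was lower and 6 were not called, with a median log2 fold change of 2.46. Gucy1a1, a subunit of the nitric oxide receptor, was positive in 88.1% ± 11.2 of mural cells and 2.78% of fibroblasts. Nrip2, a nuclear receptor cofactor, was positive in 68.4% ± 29.9 and 0.0337%, Rgs4, a relative of Rgs5, in 73.5% ± 11.6 and 0.986%, and Notch3, a Notch receptor, in 70.4% ± 16.1 and 1.83%. Cd248, called lower with −2.36 on the log2 scale (SE 0.488, edgeR adjusted p = 0.0126), encodes endosialin. Steap4 was positive in 228 of 253 cells of cluster 8 and in 9 of 187 mural cells. Against cluster 10, 11 of 17 were higher, 1, Steap4, was lower with −4.19 (SE 0.890, edgeR adjusted p = 0.0364), and 5 were not called.

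Of 12 smooth muscle genes 12 were higher in mural cells than in fibroblasts, and of 6 fibroblast genes 6 were lower, though Dcn was still positive in 65.2% ± 36.3 of mural cells. Summed fibroblast genes ran from 111.7 to 631.4 scaled counts over strains of mural cells and from 6640 to 10610 over those of fibroblasts. Mural markers, of which 3 are among the 9, were higher in 7 of 8, Pdgfrb being the one not called. Endothelial markers were positive in 3 mural cells, and of 7 tested 1 was lower (Tek) and 0 higher. Nerve and glial markers were positive in 1 mural cell, with 3 of 5 tested and none called, and fibre markers in 16, with 6 of 7 tested and none called. Satellite cell markers were positive in 3 mural cells, and none of the 4 passed the filter for testing.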

How the data were processed

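The authors deposited unnormalized counts of reads, from Smart-seq2 libraries (full-length cDNA, no molecular identifiers), made by alignment to GRCm38 and counting with featureCounts; the annotation release and strand use are not given in the sources used here. The authors had removed cells of low quality, with very many genes (possible doublets) or with immune or endothelial signatures, and made the clusters. The table held 1754 columns of cells; 1 column without a matching label was not used. Spike-ins (1.31% of counts) were left out. Of the identifiers, 46005 matched GENCODE M21.

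Counts were summed per class and strain (3 or more cells) and tested with edgeR 4.0.16 (TMM, filterByExpr, quasi-likelihood, strain as block) in R 4.3.3. Rates of positive cells used 100 of 500000 scaled counts, and intervals are exact binomial at 95%, which, like limits from a count of 0, cover counting error only. No doublet caller was run. Alternatives were another normalization (RLE), DESeq2 1.42.0, no block, no filter, plates as units, cluster 10 left out, detection at 20 or any count, thinning to 45000 counts, and each strain left out; leaving out the smaller C57BL6 plate was added after seeing the data. Fits were tested on simulated data. Named genes were the 9 markers, up to 4 genes of a list by level in cluster 7, with Steap4, Cd248 and those in counts of co-detection chosen after their values were seen, the 3 genes most like each marker and the 5 highest and lowest by rank correlation. The markers and lists were chosen with earlier results of these data known.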

Additional observations from a re-analysis of the deposited data

Results flagged for a closer look

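Among 30 sets of 5 strain values, 5 held a strain whose gap to its nearest neighbour exceeded Dixon's limit of 0.71 of the range. For normally distributed values, chance alone flags about 1 in 20 such sets. That rate does not hold for shares with ties at 0, such as those of Rgs5 and Higd1b in fibroblasts. The share of fibroblasts positive for Cspg4 was 40.2% in Cspg4dsRED, whose cells were sorted on a Cspg4 reporter. The difference in Mcam between mural cells and fibroblasts was 12.5 log2 CPM in C57BL6, where fibroblasts held 10 counts in all. The share of mural cells positive for Anpep was 11.1% in C57BL6, which is 1 of 9 cells. The share of fibroblasts positive for Rgs5 was 1.98% in Acta2GFP, which is 2 of 101 cells. The share of fibroblasts positive for Higd1b was 0.249% in the pool, which is 1 of 401 cells.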

How the results depend on the processing

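Of the 9 markers, 5 were called between mural cells and fibroblasts, and 4 to 6 under each alternative but DESeq2, which called 8. Genes called in all were 2140, against 4336 by DESeq2, 1230 to 2257 when each strain was left out in turn (1230 without PdgfrbGFP) and 1420 without the smaller C57BL6 plate. Against cluster 10, 3 markers were called, 6 by DESeq2, 6 without the filter and 3 to 5 when each strain was left out, of 687 genes in all (2533 by DESeq2, 1195 without the filter). The log2 fold change of Vtn against fibroblasts was −0.55 without C57BL6, −0.12 without the pool and −0.50 with plates as units, none of them called. When each strain was left out it ran up to 0.93 (without Cspg4dsRED), and it was 1.55 without the strain as a block. Without the pool, those against cluster 10 were −0.37 for Anpep and −0.71 for Kcnj8, not called either, with 2.07 and 4.54 as their highest values when another strain was left out. Kcnj8 gave no value without Cspg4dsRED, as it was then filtered out. The causes were not tested. Without the strain as a block, 2144 and 843 genes and 5 and 3 markers were called; Cspg4 was lost (1.70) and Kcnj8 gained (5.51). The deviations of mural and fibroblast sums of the same strain correlated with r = 0.09 to 0.17 over genes, under 0.1 in 4 of 5 strains. Both classes of a strain lie on shared plates, and the labels tie neither to a mouse. At any count above 0 the mean number of markers per mural cell was 4.87 and the share with none of the 5 was 23.8%, against 3.16 and 62.2% at the level used (means over strains). Thinning to 45000 counts gave 3.16 markers and 61.2%, and leaving out cells with no count of Pdgfra or Pdgfrb gave 3.11 markers. Of the single shares, 22 moved by more than their spread between strains, 14 at any count and 8 at detection of 20. Few mural cells in C57BL6 and the pool limit every share there.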
